A study of Homo sapiens with 8 samples.

Results

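Among 22626 N6-methyladenosine (m6A) peaks listed for HCT116 cells, 604 peaks lay on 394 genes whose names or descriptions mark them as long non-coding RNAs (lncRNAs). Members were taken by name: intergenic genes named LINC, microRNA host genes ending in HG, antisense genes ending in AS1, AS2 or AS3, divergent transcripts ending in DT, intronic transcripts ending in IT1 and opposite-strand genes ending in OS. A description that contained "non-protein coding RNA" or "antisense RNA" also made a peak a member, and 17 peaks on 10 genes entered through it alone. MALAT1, NEAT1, ZFAS1, GAS5 and the SNHG genes were left out. HCT116 is a human colorectal cancer line. Cells with a stable knockdown of ALKBH5 by a short hairpin RNA (shALKBH5) were set beside cells with a non-targeting hairpin (shNC). From each arm, RNA fragments bound by an anti-m6A antibody (IP) and unselected fragments (input) were sequenced, which gave 4 groups of 2 libraries. The series asks how m6A marks that depend on ALKBH5 are distributed.

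The labels say that poly(A) RNA was purified before fragmentation. They do not say whether the 2 libraries of a group came from separate cultures, or how many hairpins or clones were used. The titles of all knockdown libraries share the tag AL1, which may name 1 hairpin, though its meaning is not stated. No values per library were used, so replicate errors and depth are unknown, and the level of ALKBH5 was not checked. Every fold between the arms comes from the authors' own comparison. Its numerator is not stated, so a positive or a negative fold stands for an unknown direction, with no reading as gain or loss after knockdown. Nor is it stated whether the fold is corrected for transcript level, so m6A and transcript level cannot be told apart, and in these bulk libraries neither can fewer cells and less RNA per cell. A peak past the authors' false discovery rate (FDR) of 0.05 is called. As a check of the label, 6 of 9 epithelial and colorectal marker genes had a listed peak, against 1 of 5 fibroblast, 0 of 5 leukocyte and 0 of 3 endothelial markers. The part of other cell types was not tested further.

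LncRNAs are transcripts without a recognised long reading frame. Antisense and divergent ones start inside or beside a protein-coding gene and run on the opposite strand, and host genes carry microRNA hairpins that are cut out of the primary transcript. m6A is written co-transcriptionally by the METTL3 and METTL14 complex at adenosines in short motifs built around GGAC, and it is removed by ALKBH5, a nuclear demethylase, and by FTO. On lncRNAs the mark is known to change structure, protein binding and stability, and within primary microRNAs it can mark hairpins for processing.

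The label held for most members but not for all. By symbol or synonym, 589 member peaks matched the RefSeq gene table of GRCh38.p14. That table lists 26 of them, on 12 genes, as protein-coding. FOS, MIOS and MOCOS were taken only because their names end in OS. FOS encodes a subunit of the AP-1 transcription factor, MIOS a component of the GATOR2 complex of mTORC1 signalling, and MOCOS an enzyme of the molybdenum cofactor. The other 9 were BRD3OS, CEBPZOS, FAM120AOS, LINC02210-CRHR1, MMP24OS, SLC7A6OS, SPTY2D1OS, ZBTB8OS and ZNF593OS. These stayed in the counts, and the count of called peaks without them is given with it.

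The RNA products of the host genes and genomic sequence under 2 of the peaks are printed first, to show the members at the level of bases. RefSeq places 19 microRNA hairpins on the strand of 11 member genes, and 33 mature microRNAs come from them. The 7 printed here are the leading arms from MIR100HG, whose peak was called, from MIR23AHG, which had the most peaks of the genes named as hosts, and from MIR210HG. Capitals mark the seed, bases 2 to 8 from the 5′ end, which pairs with targets.
hsa-miR-125b-5p: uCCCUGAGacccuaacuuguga
hsa-let-7a-5p: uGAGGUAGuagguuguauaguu
hsa-miR-100-5p: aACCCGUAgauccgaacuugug
hsa-miR-23a-3p: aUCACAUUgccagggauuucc
hsa-miR-27a-3p: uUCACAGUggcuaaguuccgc
hsa-miR-24-3p: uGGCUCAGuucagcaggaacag
hsa-miR-210-3p: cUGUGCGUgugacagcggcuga
All 7 seeds differ. Among all 33 mature sequences there were 32 distinct seeds, since miR-181a-5p and miR-181b-5p from MIR181A1HG both read ACAUUCA.

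Sequence under a peak was read only where the peak reached into the RefSeq window around the annotated gene start, 250 bases before to 50 after, so most of such sequence is upstream of that start. The first peak of LINC00857, an intergenic lncRNA described in several carcinomas, lay in such a window whole, at chr10:80207462-80207581 on the plus strand (GRCh38.p14), and all of it is upstream of the annotated start. Capitals mark GGACT, a common form of the m6A motif. For LINC01844 the window holds the first 163 bases of a peak of 179, chr5:142745487-142745649 on the plus strand, and these are shown as a stretch without GGACT on either strand. The rest of that peak was not read.
LINC00857: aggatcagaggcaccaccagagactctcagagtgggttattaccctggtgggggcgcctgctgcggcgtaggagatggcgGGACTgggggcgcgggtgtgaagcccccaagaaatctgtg
LINC01844: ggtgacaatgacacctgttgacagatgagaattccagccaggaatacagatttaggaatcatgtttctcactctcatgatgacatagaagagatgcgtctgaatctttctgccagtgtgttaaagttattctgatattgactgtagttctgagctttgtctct
In the authors' deposited table the LINC00857 peak had an enrichment of 11.3 and a log2 fold of -1.74 (FDR 0.66), and the LINC01844 peak 12.9 and -0.32 (FDR 0.73). Neither was called. The search for GGACT covered both strands, where the opposite strand reads AGTCC. Windows of 300 bases held it in 153 of 341 member genes (44.9%), beside 44.2% of all 35116 windows. In stretches of 100 bases cut from peaks inside such windows, GGACT stood on the RNA strand in 5 of 33 for the members and in 56 of 398 (14.1%) for all peaks. It stood on the other strand in 5 of 33 and in 38 of 398 (9.55%). The letters were thus about as frequent in the members as elsewhere, in few sequences.

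Few members carried a called difference between the arms, and most of those that did had a positive fold. By the authors' deposited table, the calls among members were 19 peaks on 19 genes, of which 16 had a positive fold and 3 a negative one. That is 3.15% of 604 (exact binomial 95% interval 1.90 to 4.87, which covers counting over peaks only), where 8.23% of all peaks were called. By sign, 5.74% of all peaks were called positive and 2.49% negative. The median log2 fold of the members was 0.09 (quartiles -0.66 and 0.89) and that of all peaks 0.14. The folds ran from -4.39 to 3.87, with 319 positive, 280 negative and 5 at 0. The size of the log2 fold exceeded 1 in 226 members (37.4%), of which 14 were called, and in 32.0% of all peaks. Without the 12 protein-coding genes, 17 of 578 peaks were called.

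The number called moved with the threshold and with the centring. At an FDR of 0.01 11 members passed, where 4.99% of all peaks did. At an unadjusted p of 0.05 64 members (10.6%) passed, beside 19.9% of all peaks. The authors' p had a maximum of 0.773, and its sidedness is not stated. Doubling it, which suits a one-sided p, left 14 members and 6.36% of all peaks called. With the median of 0.14 subtracted from every fold, 10 members were called positive and 7 negative, in place of 16 and 3. After that shift 7.78% of all peaks were called, 4.13% positive and 3.66% negative. The recentred calls rest on reading the authors' p as one-sided, which is an assumption. A p of the form used for them cannot reach 0.773, so the assumption does not hold for all peaks. The recentred calls are therefore only a rough guide.

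**Figure D1:**
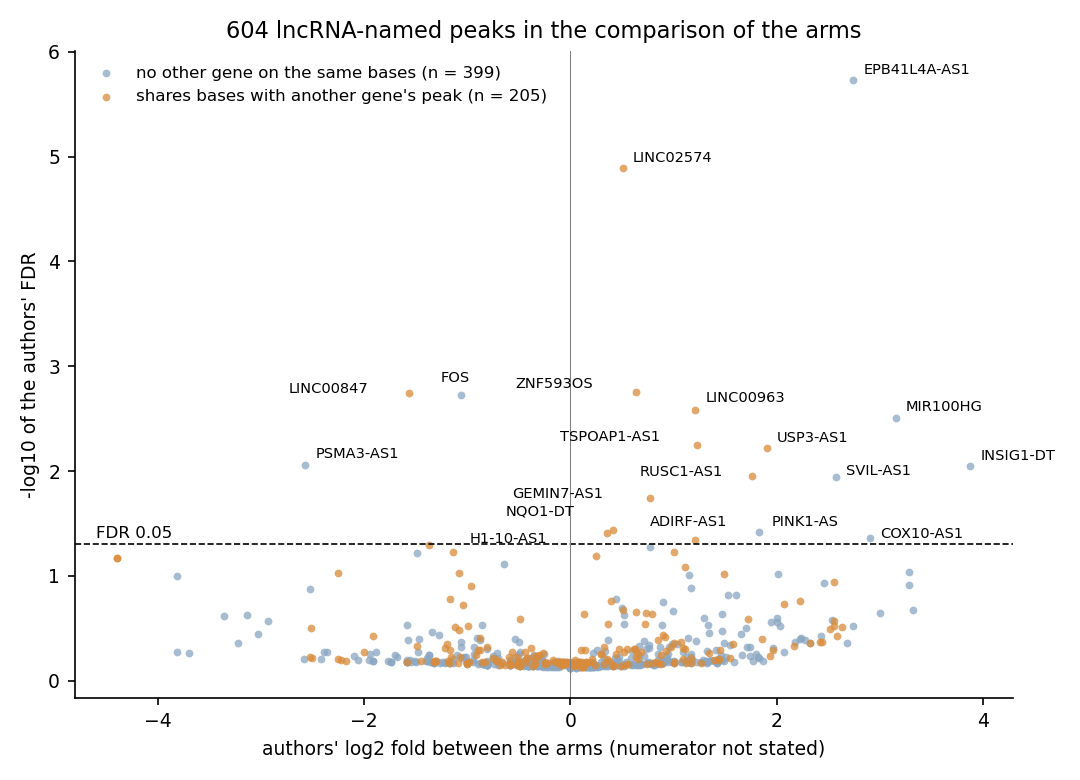
Each of the 604 member peaks is 1 point, with the authors' log2 fold between the arms on the x axis and -log10 of the authors' FDR on the y axis. Colour separates 205 peaks that share bases with a peak of another gene from 399 that do not. The 19 named points lie above the dashed line at an FDR of 0.05, and most points beyond a log2 fold of 1 on either side lie below it.

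The classes of members held similar folds. The 338 peaks of antisense genes gave 10 calls and a median log2 fold of 0.09 in the authors' deposited table, where 8.23% of all peaks were called and the median was 0.14. The 134 peaks of LINC genes gave 3 calls (median 0.14), the 77 of divergent transcripts 2 (median 0.08) and the 26 of genes ending in OS 2 (median 0.14). RefSeq lists 25 of those 26 OS peaks as protein-coding, so that class is hardly one of lncRNAs. Both of its calls, FOS and ZNF593OS, are on protein-coding genes. Of the 11 peaks on microRNA host genes 1 was called (median -0.11), and of the 17 taken by description 1 (median 0.20). The single intronic member, GABPB1-IT1, stood at 0.95 in the authors' deposited table and was not called. Apart from that single peak, the class medians lay between -0.11 and 0.20.

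Member peaks were short and strongly enriched, yet supported by a weaker peak p. The median enrichment, a linear ratio given by the authors for each peak, was 11.8 in members (quartiles 7.88 and 18) and 10.1 in all peaks. The median exonic length was 260.5 bases, beside 300 in all peaks, and 21.4% of member peaks spanned more than 1 exon block, beside 30.4%. The median log10 p of the peak was -5.47 in members and -8.20 in all peaks. This p belongs to the peak itself and not to the difference between the arms. It did not simply follow enrichment: IER3-AS1 had a log10 p of -1550 at an enrichment of 6.04, and TTN-AS1 -19.8 at 55.7. The part of coverage in this p was not tested.

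The share called followed that peak p closely. All peaks were divided into 5 classes of equal size by peak p, and 21.8% were called in the class of smallest p, then 10.9%, 5.10%, 2.25% and 1.0%. Only 60 members fell in the first class, and 11 of them were called (18.3%). In the second class it was 3 of 85, in the third 2 of 127 and in the next 3 of 158. None of the 174 members in the weakest class was called, which allows a share of up to 2.10% (exact binomial 95% upper bound). Had each class of members been called at the rate of all peaks, 34.2 calls (5.66%) would have resulted in place of 19. In every class but the second, the rate of all peaks lay within the exact binomial interval of the members.

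**Figure D2:**
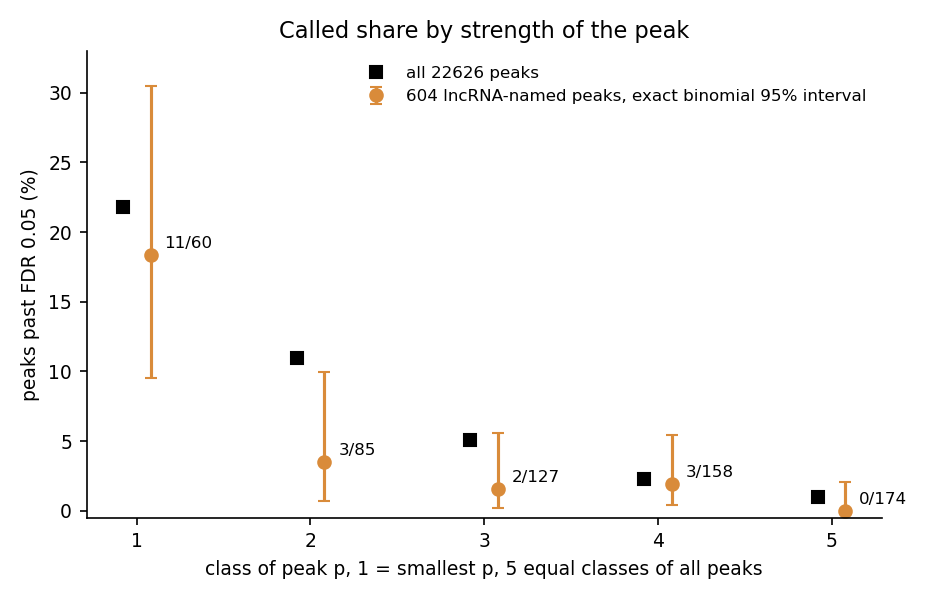
The x axis gives 5 classes of the peak's own p, from the smallest p (1) to the largest (5), and the y axis the percentage of peaks past an FDR of 0.05 between the arms. Black squares are all 22626 peaks, and orange points are the members with exact binomial 95% intervals and counts. Both fall from class 1 (21.8% and 18.3%) to class 5 (1.0% and 0).

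Of the 19 called peaks, 8 shared no base with a peak of another gene. EPB41L4A-AS1 had the smallest FDR. This snoRNA host gene is a p53-regulated lncRNA described as a brake on tumour metabolism. Its single peak, at 112162137 to 112162316 on chromosome 5 and with its centre 275 bases from the 3′ end of the gene, had a log2 fold of 2.74 (FDR 1.9e-06), by the authors' deposited table. The peak itself was weak, with an enrichment of 2.02 and a log10 peak p of -5.38. The call held at an FDR of 0.01, with p doubled and with the folds recentred.

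MIR100HG gave the called peak with the best support of the 8. It hosts miR-125b-1, let-7a-2 and miR-100, whose sequences stand above, and has been linked to cetuximab resistance in colorectal cancer. Its single peak, 2 blocks of 481 bases in all between 122091324 and 122100437 on the minus strand of chromosome 11, had an enrichment of 24.0 and a log10 peak p of -87.6. The log2 fold was 3.15 (FDR 0.0031), by the authors' deposited table. The MIR125B1 hairpin, at 122099757 to 122099844, lay between the 2 blocks, 530 bases from the nearer one. The hairpins of MIRLET7A2 and MIR100 lay 46085 and 51792 bases away. The blocks thus flank miR-125b-1 without covering it.

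INSIG1-DT had the largest fold, in either sign, of the called members. It starts beside INSIG1, whose product holds the sterol-sensing SREBP pathway in the endoplasmic reticulum. The peak at 155296420 to 155296951 on chromosome 7 had a log2 fold of 3.87 (FDR 0.0089), by the authors' deposited table, with an enrichment of 15.2 and a log10 peak p of -5.62. The INSIG1 peak itself, which shares no base with it, stood at 0.48 (FDR 0.38) in the same authors' deposited table. The neighbour's peak was not called, and the difference between them was not tested.

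SVIL-AS1 and COX10-AS1 were further antisense genes whose called peak was positive and shared no base with another gene. SVIL-AS1 lies opposite the gene of the actin-binding protein supervillin, and its called peak had an enrichment of 43.3 and a log2 fold of 2.57 (FDR 0.011), by the authors' deposited table. Its other peaks stood at 1.13 and 1.0 in the authors' deposited table, uncalled, and the last of them lay wholly on bases of a peak of the pseudogene PTCHD3P1, also at 1.0. COX10-AS1 is named for the heme A synthesis gene COX10, and its peak stood at 2.90 (FDR 0.044), by the authors' deposited table, just inside the threshold. That call was lost with p doubled (FDR 0.087) and with the folds recentred (FDR 0.060). The other COX10-AS1 peak stood at -1.57 (FDR 0.41), by the authors' deposited table. The strongest COX10 peak stood at -0.20 (FDR 0.64) and the strongest SVIL peak at 1.96 (FDR 0.23), by the authors' deposited table. Neither partner was called.

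The 3 peaks listed under PINK1-AS differed in fold, but all except the called one share bases with PINK1 peaks. Which gene the folds of those peaks belong to is uncertain. PINK1-AS runs opposite PINK1, the kinase that starts the clearance of damaged mitochondria. Its called peak, 121 bases long, had a log2 fold of 1.83 (FDR 0.038), by the authors' deposited table and was lost with p doubled (FDR 0.076). A second PINK1-AS peak of 776 bases had one of the 5 smallest peak p-values among members (log10 p -526), and its log2 fold was 0.10 (FDR 0.51), by the authors' deposited table. That peak shares 773 bases with a PINK1 peak, which the authors' deposited table puts at 0.09. The third stood at -2.51 (FDR 0.31), by the authors' deposited table, also over a PINK1 peak, at -2.93. Of the 3, the called peak alone shared no base with PINK1.

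PSMA3-AS1 and FOS were the free peaks with a negative fold. PSMA3-AS1 is named for a subunit of the 20S proteasome, and its called peak of 810 bases had a log2 fold of -2.57 (FDR 0.0087), by the authors' deposited table. Its other peak stood at 0.42 (FDR 0.68), by the authors' deposited table. FOS, which is protein-coding and no lncRNA, stood at -1.06 (FDR 0.0019), by the authors' deposited table. Among lncRNAs by RefSeq, PSMA3-AS1 was therefore the single free negative call.

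The other 11 called peaks lay on bases that a peak of another gene also covers. Both strands or genes are then listed from the same stretch, and whether the authors counted by strand is not stated, so which gene each fold belongs to is uncertain. In 4 of them both peaks had nearly equal folds and both were called. TSPOAP1-AS1 stood at 1.23 (FDR 0.0056) and SUPT4H1, a transcription elongation factor gene, at 1.22 (FDR 0.0058), by the authors' deposited table. GEMIN7-AS1 stood at 0.77 and GEMIN7, of the SMN complex that assembles spliceosomal RNPs, at 0.75 over 820 shared bases in the authors' deposited table. For ZNF593OS and ZNF593 the authors' deposited table gives 0.64 and 0.62. LINC02574 shares 216 bases on the same strand with the interferon-induced gene IFI6, and the authors' deposited table gives 0.51 (FDR 1.3e-05) and 0.47 (FDR 1.8e-05).

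In a further 3 pairs both peaks were called with folds somewhat apart. USP3-AS1 had an enrichment of 50.1 and a log2 fold of 1.90 (FDR 0.0060), beside 1.64 (FDR 5.1e-05) for USP3, a histone deubiquitinase gene, in the authors' deposited table. NQO1-DT is named for the NRF2 target NQO1 but overlaps NOB1, a gene of 18S rRNA maturation. The authors' deposited table gives 0.42 for NQO1-DT and 0.29 for NOB1, while neither NQO1 peak was called (0.16 and -0.12). LINC00847 stood at -1.56 and an unnamed locus on its bases at -1.82, both with an FDR of 0.0018, in the authors' deposited table. LINC00847 was the only negative call of the 11.

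In the last 4 the member was called and the other peak was not. RUSC1-AS1 stood at 1.76 (FDR 0.011) over a peak of FDPS, a mevalonate pathway enzyme gene, at 0.83 (FDR 0.26), by the authors' deposited table. The gene it is named for, RUSC1, had a called peak elsewhere at -1.33 (FDR 0.020), by the authors' deposited table. LINC00963 stood at 1.21 (FDR 0.0026) over an unnamed locus at 0.70 (FDR 0.34), by the authors' deposited table. That was the only called peak of 5 on LINC00963, whose log2 folds ran from -1.32 to 1.21. ADIRF-AS1 stood at 1.21 (FDR 0.046), just inside the threshold, over peaks of the adipogenesis gene ADIRF at 1.31 (FDR 0.13) and of an unnamed locus at 0.01, in the authors' deposited table. H1-10-AS1 stood at 0.36 (FDR 0.039) and the linker histone gene H1-10 at 0.07 (FDR 0.51), by the authors' deposited table. H1-10-AS1, ADIRF-AS1 and NQO1-DT were lost with p doubled (FDR 0.077, 0.091 and 0.072), and these 3 and GEMIN7-AS1 with the folds recentred. Just outside the threshold lay LINC02210-CRHR1 (-1.37, FDR 0.051) and LINC00659 (0.77, FDR 0.054), by the authors' deposited table.

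Sharing bases with another gene was common among members. Such peaks numbered 205 (33.9%), beside 15.7% of all peaks. On the opposite strand alone they numbered 193 (32.0%, and 42.9% of the antisense class), beside 9.48% of all peaks. Of the 205, 11 were called (5.37%), and of the 399 free members 8 (2.01%). Among peaks that were not members the shares were 10.3% with shared bases and 8.02% without.

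Where bases were shared on opposite strands, the folds ran together. Over 204 pairs of a member peak and a peak that was not a member, Pearson r was 0.77 and Spearman rho 0.75 across pairs, as a description, since both peaks of a pair can rest on the same reads. The sign was the same in 158 pairs (77.5%), and the median difference in log2 fold was 0.26. In 109 pairs that shared at least 90% of the shorter peak r was 0.84, in 178 that shared at least 50% it was 0.80, and in the 26 that shared less it was 0.52. Where a member and the gene it is named for had peaks with no base in common, the picture was another. Over 150 such gene pairs, taking the peak of smallest p on each side, r was 0.07 and rho -0.01, the sign was the same in 72 (48.0%) and the median difference was 1.02. The difference between the 2 correlations was not tested.

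**Figure D3:**
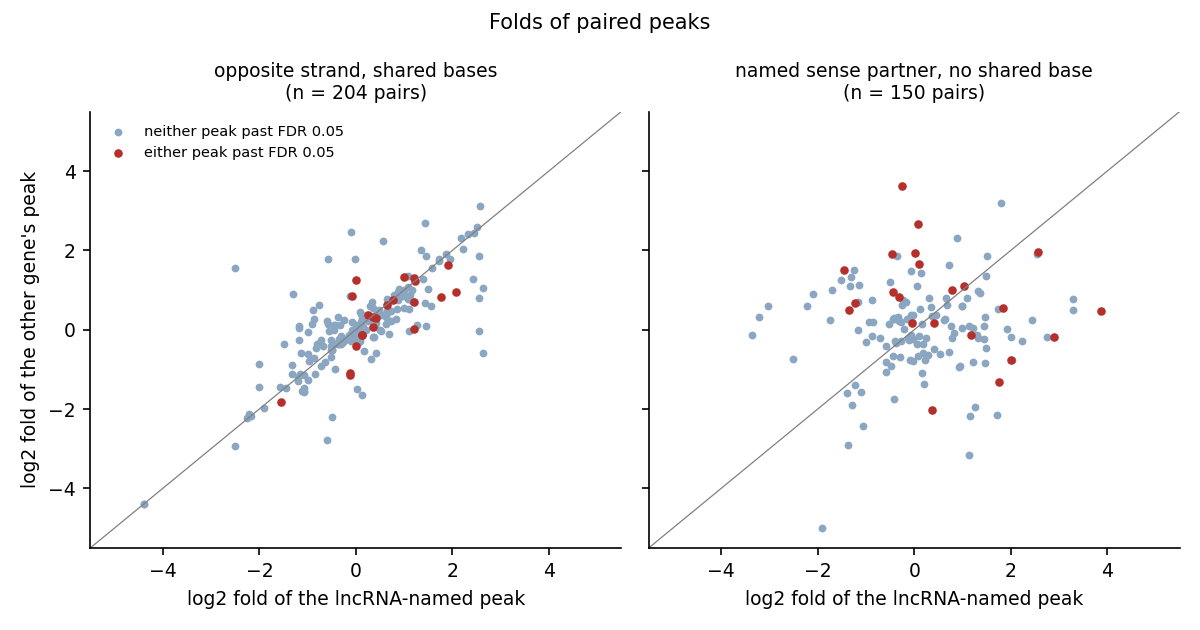
Each point is 1 pair of peaks, with the log2 fold of the member on the x axis and that of the other gene on the y axis, both from the authors' deposited table; red marks pairs with either peak past an FDR of 0.05 and the grey line is equality. The 204 pairs with shared bases (left) gather along the line, and the 150 pairs without (right) do not.

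Some overlapping pairs still differed in their calls. In 11 pairs only the other peak was called. IER3-AS1, opposite the stress-response gene IER3, shared all 352 bases of its peak, one of the most significant among members (log10 peak p -1550). It stood at 0.13 (FDR 0.23), by the authors' deposited table, where IER3 stood at -0.14 (FDR 2.6e-05). LINC01764 stood at 0.36 (FDR 0.29) and UCA1, a lncRNA known from bladder and colorectal cancer, at 0.31 (FDR 0.0019) over 489 shared bases in the authors' deposited table. A second TSPOAP1-AS1 peak stood at -0.12 (FDR 0.67) over RNF43, the Wnt-restraining ubiquitin ligase gene, at -1.15 (FDR 0.0081), by the authors' deposited table. FOXD1-AS1 stood at 0 and FOXD1, a forkhead transcription factor gene, at 1.25 (FDR 0.0065), by the authors' deposited table. The widest gap was between VCAN-AS1 at -2.50 and VCAN, which encodes the matrix proteoglycan versican, at 1.55 in the authors' deposited table, with neither called.

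In all, 293 member genes name a partner gene, and 237 of those partners had a peak. Peaks of member and partner shared bases in 98 gene pairs. Of the 237 gene pairs, a partner peak was called in 39, a member peak in 10, and both in 4: GEMIN7-AS1, RUSC1-AS1, USP3-AS1 and ZNF593OS. Over the whole list, 1644 of 12009 genes had a called peak. Of 537 partner peaks 46 were called (8.57%, 30 positive and 16 negative), close to the 8.23% of all peaks. The partners of lncRNAs thus carried calls at about the rate of the whole list.

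The most enriched member peak lay on ENTPD1-AS1, with an enrichment of 190. It shares 570 bases with ENTPD1, the gene of the ectonucleotidase CD39. Both stood at a log2 fold of 0.65 in the authors' deposited table (FDR 0.62 for each). Then followed DHRS4-AS1 (enrichment 73.7), MIOS (59.6), TTN-AS1 (55.7) and MAFG-DT (55.7), with log2 folds between -0.93 and 0.90 in the authors' deposited table. The TTN-AS1 peak shares 809 bases with a TTN peak, at 1.02 in the authors' deposited table. THAP9-AS1 had a peak p listed as 0, over 1287 bases, and a log2 fold of -0.03 (FDR 0.66), by the authors' deposited table. Of the 5 members with the smallest peak p (THAP9-AS1, IER3-AS1, ZNF593OS, PINK1-AS and LINC01764) 1 was called, beside 21.8% of all peaks in the class of smallest peak p. The most negative folds were at weak peaks: KCTD21-AS1 stood at -4.39 (FDR 0.068, log10 peak p -3.12) and NIPBL-DT at -3.81 (FDR 0.10, log10 peak p -2.99), by the authors' deposited table. That KCTD21-AS1 peak shares 110 bases with a KCTD21 peak of the same fold and FDR, so which gene the fold belongs to is uncertain.

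Most member genes had 1 listed peak. That held for 263 of 394 (66.8%), beside 51.6% of all genes with a peak, and 47 (11.9%) had 3 or more, beside 21.3%. Of these 47, 30 had folds of both signs, 11 only positive and 6 only negative folds, and 4 had a called peak (LINC00963, ADIRF-AS1, PINK1-AS and SVIL-AS1). How many of all genes with 3 or more peaks had a called peak was not counted. FAM120AOS, protein-coding by RefSeq, had the most peaks of any member gene, 7, with log2 folds from -0.59 to 3.28 in the authors' deposited table. MIR23AHG, host of the miR-23a, miR-27a and miR-24 hairpins, had 5, which the authors' deposited table gives at -2.25, -0.08, 2.58, -1.37 and -0.79. Its peaks at -2.25, -0.08 and 2.58 share bases with ZSWIM4 peaks at -2.22, -0.15 and 3.11, so the gene of those folds is uncertain. OIP5-AS1, a conserved lncRNA that binds miR-7, had 4, at 0.15, 0.52, -0.15 and 1.60 in the authors' deposited table. LIPE-AS1 with 6 peaks and LINC01128 with 5 also had both signs. Both signs thus stood in 63.8% of these genes, beside 77.8% of all genes with 3 or more peaks.

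Several of these genes held to 1 sign without any call, and some are described here. PAX8-AS1, opposite the thyroid and kidney transcription factor gene PAX8, had 6 peaks with log2 folds from 0.77 to 2.27 in the authors' deposited table, and the smallest FDR was 0.34. EIF2AK3-DT, beside the gene of the stress kinase PERK, had 4 from 1.0 to 1.94 (smallest FDR 0.27, authors' deposited table). UBA6-AS1 had 3, at 1.49, 1.82 and 2.46 (smallest FDR 0.096), and GARS1-DT, beside a tRNA synthetase gene, 3 from 0.89 to 1.0, by the authors' deposited table. SLC9A3-AS1, opposite the sodium-proton exchanger gene SLC9A3, had 4 from -1.12 to -0.87 (smallest FDR 0.31), and LINC01694 3 from -2.42 to -0.81, by the authors' deposited table. The UBA6-AS1 peak at 1.49 shares 614 bases with a peak of an unnamed locus at 1.02. The SLC9A3-AS1 peaks at -1.12 and -1.08 each share 245 bases with an SLC9A3 peak at -1.54. Which gene those folds belong to is uncertain. Peaks of 1 gene are not replicates, and some are listed in duplicate: 28 member peaks overlap another peak of the same gene, those of SLC9A3-AS1, KCTD21-AS1 and EIF2AK3-DT among them.

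**Figure D4:**
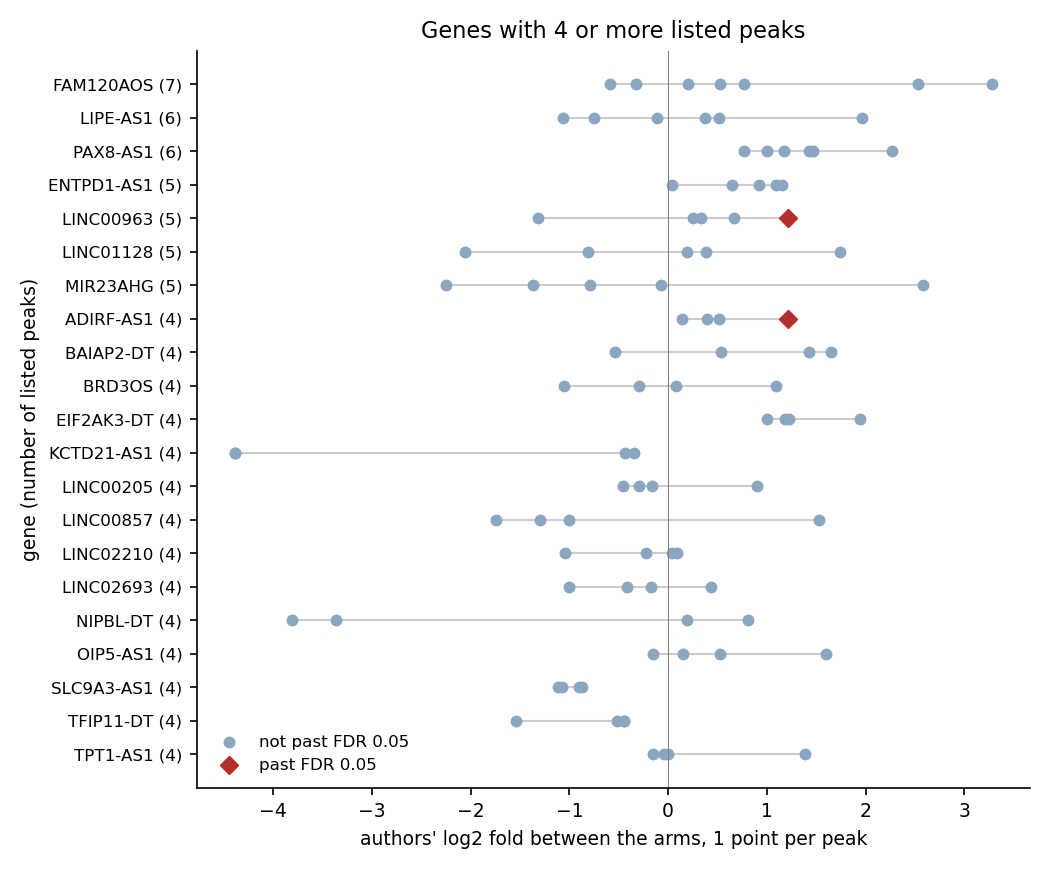
Each row is 1 of the 21 member genes with 4 or more listed peaks, with the number of peaks in brackets, and each point is 1 peak at the authors' log2 fold between the arms. Red diamonds are called peaks, at 1.21 for both LINC00963 and ADIRF-AS1. Most rows cross 0, while PAX8-AS1, EIF2AK3-DT, ENTPD1-AS1 and ADIRF-AS1 stay above it and SLC9A3-AS1, KCTD21-AS1 and TFIP11-DT below.

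The microRNA hairpins themselves carried no listed peak. Of the 19 hairpins on member genes none shared a base with a peak block, and 4 lay within 1000 bases of one. Poly(A) RNA was sequenced and peaks are listed as exon blocks. A hairpin in an intron, or cut out of its transcript, could therefore hardly hold a listed peak. The absence says nothing about m6A on hairpins within primary transcripts. The MIR125B1 hairpin of MIR100HG was 530 bases away. The MIR210 hairpin of the hypoxia-induced MIR210HG lay 466 bases from a peak with an enrichment of 9.94 and a log2 fold of -0.11 (FDR 0.69), by the authors' deposited table. MIR762 lay 673 bases from the MIR762HG peak and MIR4999 683 bases from the RAB11B-AS1 peak. The hairpins MIR23A, MIR27A and MIR24-2 lay 3029 to 3329 bases from the nearest MIR23AHG block.

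Among peaks wholly within their RefSeq gene, a larger share of members than of all peaks lay near an annotated gene end. Most members lay farther away from either end. Peaks with no gene match, or reaching beyond the annotated ends, were left out. That kept 493 of 604 members and 20163 of all 22626 peaks, so members lost a larger share. Of the 493 members, 153 (31.0%, exact binomial 95% interval 27.0 to 35.3) had their centre within 1000 bases of the annotated 3′ end, beside 19.8% of all such peaks. Within 1000 bases of the 5′ end lay 92 (18.7%), beside 7.98%. Divergent transcripts lay near the 5′ end most often among the 3 largest classes (39.7%), and LINC genes least (11.0%), with antisense genes at 16.8%. Near the 3′ end the 3 classes stood at 38.2%, 31.2% and 30.6%. Gene length differed too: the median gene length was 10385 bases over member peaks and 37262 over all peaks. By class it was 4436 for divergent, 12728 for antisense and 14892 for LINC peaks, the reverse of the order at the 5′ end. The part of gene length in these shares was not tested.

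**Figure D5:**
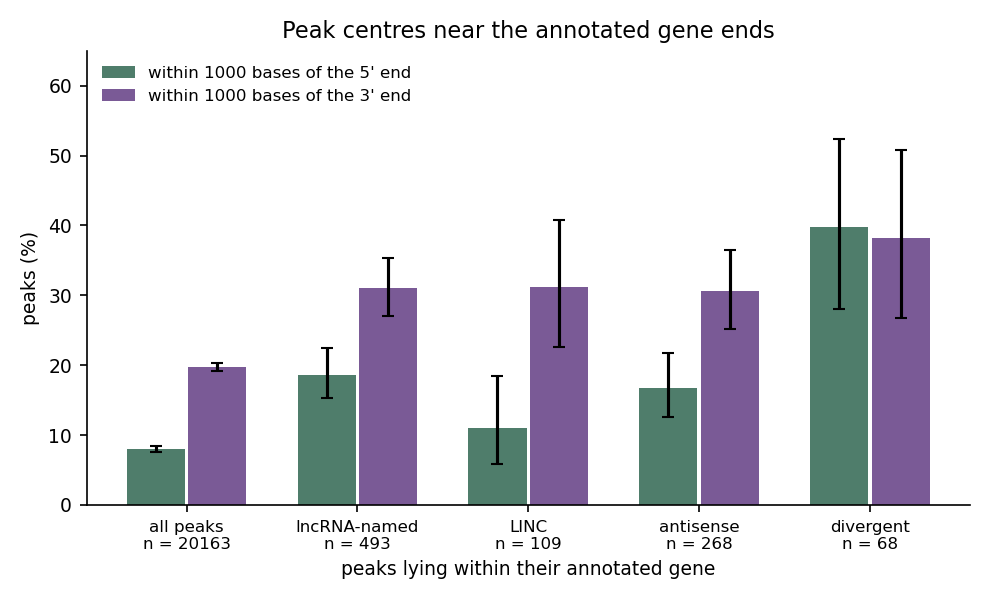
Bars give the percentage of peaks whose centre lies within 1000 bases of the annotated 5′ or 3′ end of the gene. They cover all peaks, all members and the 3 largest classes, with exact binomial 95% intervals over peaks. Only peaks wholly within their annotated gene are counted. Members stand above all peaks at both ends (18.7% against 7.98% and 31.0% against 19.8%), and divergent transcripts are highest at the 5′ end.

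Of a list of 31 well-known lncRNAs, 15 had a listed peak, and 6 of these fell under the naming rule, with 10 peaks. They were EPB41L4A-AS1 and MIR100HG, both called and described above, and LINC-PINT, LINC00511, MIR210HG and ZEB1-AS1, none called. LINC-PINT, a p53-induced lncRNA, had 3 peaks at 1.66, 0.22 and -1.09 in the authors' deposited table. LINC00511 had 3, at 0.26, 1.47 and 1.17 in the authors' deposited table, and the most significant of them (log10 peak p -61.7, enrichment 22.5) was the one at 0.26. ZEB1-AS1, beside the gene of the mesenchymal transcription factor ZEB1, had 1 peak at -1.51 (FDR 0.65), by the authors' deposited table. The other 9 genes, whose names escape the rule, had 37 peaks, of which the 1 at UCA1 was called. Over the 47 peaks of the list, 3 were called (6.38%, all positive), beside 8.23% of all peaks, and the median log2 fold was 0.19, beside 0.14.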

How the data were processed

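The authors deposited 1 list of peaks for the 8 libraries, with no values per library. BWA 0.7.12, HOMER 4.9.1 and GRCh38 come from the submitters' processing notes, with no role given, and no source used here names the program behind the peaks and folds. Per the file headers, the authors gave for each peak a fold enrichment (a linear ratio), and the p-value and FDR of the peak as a score on the log10 scale. The deposited log2 fold between the arms has its own p and FDR, also as log10 values, per the file headers. The deposited FDR matched a Benjamini-Hochberg adjustment of the deposited p within 0.02 (log10) for 22469 of 22620 peaks.

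Members, lists and tests were chosen with earlier results of these data known. The planned tests across libraries need values per library, so the authors' calls (FDR of 0.05) were used. Described by name were all called members and their partners, the 5 members of highest enrichment and of smallest peak p, genes with 3 or more peaks, a list of known lncRNAs, and the 2 members nearest the threshold on each side. The members of largest uncalled fold, LINC00857 and LINC01844 as sequences, and the pairs in which only the other peak was called were chosen after their values were seen. Shared bases were counted between exon blocks (at least 1 base). For recentred folds, standard errors were taken from p read as one-sided, which is an assumption. The method was tested on simulated data whose p had that same form, so the test does not bear on the deposited p. A p of that form cannot be as large as the deposited maximum of 0.773. Coordinates are 1-based on GRCh38, and gene ends, names and sequences come from RefSeq (GRCh38.p14). Work was done in Python 3.11.15 with pandas 2.3.3 and scipy 1.17.1.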

Additional observations from a re-analysis of the deposited data

How the results depend on the processing

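The count of called members (19) fell to 11 at an FDR of 0.01 and to 8 when members sharing bases with another gene were left out, and rose to 64 at an unadjusted p of 0.05. The other settings gave 14 to 19: 14 with p doubled, 17 with the folds recentred (10 positive and 7 negative, of which 13 were among the first 19), 17 of 490 with each locus once, 16 of 284 for peaks with a log10 FDR at or below -5, 18 by name alone and 15 with 1 peak per gene. With protein-coding genes left out it was 17, and with overlapping peaks of 1 gene merged 19, both settings chosen after seeing the data. For each locus once, the limit on the peak's log10 FDR and 1 peak per gene, the share called over all peaks was not counted. Recentring added FGD5-AS1, LINC02210-CRHR1, HSD17B1-AS1 and MOCOS, all negative. The median log2 fold (0.09) was 0.20 and the median enrichment (11.8) was 17.4 among peaks with a log10 FDR at or below -5, and the enrichment was 12.9 with 1 peak per gene. The 125 peak pairs shared by a member and its partner became 111 when at least 50% of the shorter peak had to be shared. No paired analysis was possible because the list holds no values per library, and for the same reason no library could be left out. Some weak peaks were called, 45 of 4497 over all peaks in the class of largest peak p. Depth is unknown, so how far it limited the calls at weak peaks is not known.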
